A study of Mus musculus with 6 samples.

Results

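The genes described here are 9 markers of the B cell lineage in mouse colon tumours. Mzb1, Prdm1, Irf4, Tnfrsf17 and Sdc1 are used as markers of plasma cells, the antibody-secreting end stage of the lineage, and Ms4a1, Cd79a, Cd79b and Pax5 as markers of B cells. They were chosen by gene symbol, and all 9 were found among the 53700 genes of the deposited count table and passed the filter on low counts. Gene positions below are those of GENCODE M21 on GRCm38. RNA sequencing had been done on 6 bulk colon tumours. The 3 APC-WT tumours came from cachectic mice, animals with the wasting syndrome of advanced cancer, which kept endogenous Tcf7l2 and had received doxycycline for 10 days. The 3 APC-KI tumours came from recovered mice in which doxycycline represses Tcf7l2 throughout the body and which had received it for 6 weeks. All mice took doxycycline at 100 mg/kg in their food, while the sources used here do not give the driver of the repression or the age and sex of the mice. Genotype, time on doxycycline and cachexia state therefore cannot be told apart. Sex, as read below from expressed genes, was also unevenly spread over the groups. The design text counts 3 mice in each group, and p values measure the spread between these tumours.

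B cells recognise antigen through a surface antibody that signals through the paired chains CD79A and CD79B, and they carry CD20, the product of Ms4a1. PAX5 holds the B cell programme in place and restrains the plasma cell programme. When a B cell becomes a plasma cell, IRF4 and BLIMP-1 (the product of Prdm1) shut down Pax5 and with it much of the B cell surface, while the secretory apparatus expands. MZB1 is an endoplasmic reticulum chaperone that helps to assemble antibody, BCMA (from Tnfrsf17) receives the survival factors APRIL and BAFF, and syndecan-1 (from Sdc1) is a heparan sulphate proteoglycan on the plasma cell surface. In the intestine most plasma cells lie in the lamina propria and secrete dimeric IgA, whereas B cells gather in lymphoid follicles. Sdc1 and Prdm1 are also expressed by epithelial cells, and Irf4 by T cells and dendritic cells.

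Libraries held between 51777342 and 63921108 counts, and the ranges of the groups overlapped (exact permutation test of the totals, two-sided p = 1). Levels are given as CPM, the usual depth-scaled count, on library sizes scaled with TMM factors, and 1 count was worth between 0.015 and 0.0192 CPM. Tcf7l2, the repressed gene, stood between 35.6 and 44.1 CPM in APC-WT and between 4.48 and 6.9 CPM in the APC-KI tumours. Y-linked genes had counts in APC-WT replicates 1 and 2 alone, and the other 4 libraries had 0. Xist, which female cells express, was at 0.33 and 0.563 CPM in APC-WT replicates 1 and 2. It stood between 2080 and 2220 CPM in the other 4 libraries. By these genes APC-WT replicates 1 and 2 came from males and the other 4 libraries from females, so sex is partly confounded with group. The mitochondrially encoded share was 2.5% to 2.98% in the APC-WT tumours and 2.2% to 2.43% in APC-KI libraries (exact permutation p = 0.1). In bulk tissue, fewer cells of a type and less RNA per cell cannot be told apart. At an edgeR adjusted p under 0.05, 12.5% of all genes tested rose in the APC-KI tumours and 7.63% fell. The counts of markers below are to be read beside these shares. Of 10 T cell markers 6 rose and 0 fell, and their summed level was 30.3 to 37.4 CPM in the APC-WT tumours and 53.4 to 81.9 CPM in the APC-KI tumours. All 5 smooth muscle markers rose, from a summed 116 to 342 CPM to 752 to 1250 CPM. The tumours had been separated from the muscle layer before extraction. All 7 mast cell markers fell, from a summed 64.2 to 148 CPM to 18.3 to 26.8 CPM. Fibroblast markers held 2 higher and 0 lower of 7, with 829 to 2310 and 2660 to 3730 CPM. The tissue label was borne out by epithelial markers such as Epcam, which was at 1260 CPM or more in every library.

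Of the 9 identity genes, 6 were higher in the APC-KI tumours and 0 lower at an edgeR adjusted p under 0.05, where 12.5% of the 19127 genes tested were higher and 7.63% lower. The groups did not overlap for 8 of the 9, all with APC-KI above APC-WT, which was so for 23% of genes tested. The median log2 change of the 9 was 3.25, beside −0.02 over all genes tested. The genes that passed were Mzb1, Tnfrsf17, Irf4, Prdm1, Cd79a and Cd79b. Ms4a1 and Pax5 had fitted changes as large as the largest of these and did not pass, and the groups overlapped for Sdc1. Tested gene by gene with exact two-sided permutation, p was 0.1, the smallest that 3 against 3 allows, for the 8 genes whose groups did not overlap, and 1 for Sdc1. When the libraries with Y-linked counts were left out, which leaves 1 APC-WT library against 3 APC-KI libraries, 0 of the 9 passed and the median log2 change of the 9 was 2.85. That fit takes the lone APC-WT library to vary as the APC-KI ones do, and it called 0.872% of genes higher. Without APC-KI replicate 1, 3 of the 9 passed (Mzb1, Irf4 and Cd79a), and over all genes the share called higher was 4.95%.

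**Figure D1:**
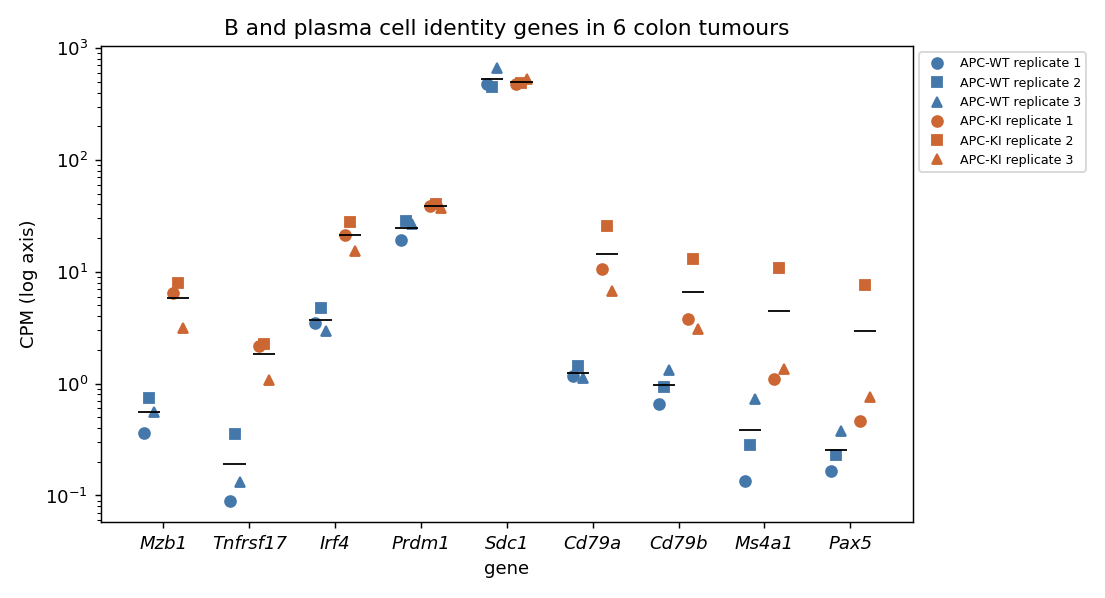
CPM of the 9 identity genes on a log axis, with blue points for the 3 APC-WT and orange points for the 3 APC-KI libraries, marker shapes for the replicate number, and a black line at the mean of each group. For Ms4a1 and Pax5 the APC-KI replicate 2 library, at 10.8 and 7.67 CPM, stands far above the other APC-KI libraries, while Sdc1 overlaps between the groups.

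Sequences before the transcription start were held in the RefSeq table (GRCm38.p6) for 6 of the 9 genes, and 3 are shown: the 2 that held a searched motif, both of plasma cell genes, and that of Cd79a, the B cell gene with an entry that passed the test. Searched on both strands of the 250 bases before the start were the TCF/LEF letters ATCAAAG, the octamer core TGCAAAT, the EBF1 palindrome TCCCNNGGGA, the ETS-IRF composite GGAANNGAAA, the PRDM1/IRF letters GAAAGTG and the XBP1 core GACGTGG. These were held by 3.21%, 3.56%, 0.779%, 2.3%, 4.01% and 1.97% of 32851 mouse windows of that length. Of the 6 genes, 2 held a match, which is a description and no evidence of binding. Tnfrsf17 had the PRDM1/IRF letters 179 bases before the start, and Prdm1 had the octamer core 167 bases before it. Each match lay on the strand opposite to its gene. Sequences are printed in the direction of the gene, so both matches, in capitals, read as the reverse complement of the letters searched. The RefSeq start used for Prdm1 lies inside the span that GENCODE M21 gives the gene. For Cd79a 116 bases that GENCODE M21 counts as exon are left out, and no searched motif was found in its window.
Tnfrsf17 (chr16:11313559-11313808, plus strand): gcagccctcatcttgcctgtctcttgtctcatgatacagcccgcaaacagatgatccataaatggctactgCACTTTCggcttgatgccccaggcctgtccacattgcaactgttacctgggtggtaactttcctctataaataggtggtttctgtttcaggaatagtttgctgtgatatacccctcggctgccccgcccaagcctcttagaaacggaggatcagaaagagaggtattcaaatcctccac
Prdm1 (chr10:44458749-44458998, minus strand): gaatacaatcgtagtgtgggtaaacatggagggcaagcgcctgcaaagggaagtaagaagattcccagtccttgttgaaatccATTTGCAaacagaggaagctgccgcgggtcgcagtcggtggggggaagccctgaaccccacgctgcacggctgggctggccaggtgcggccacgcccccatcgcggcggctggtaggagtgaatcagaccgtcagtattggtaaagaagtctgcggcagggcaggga
Cd79a (chr7:24897247-24897380, plus strand): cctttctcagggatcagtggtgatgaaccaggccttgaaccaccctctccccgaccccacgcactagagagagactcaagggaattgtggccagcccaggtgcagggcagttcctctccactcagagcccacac

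Mzb1, Tnfrsf17 and Irf4 were higher in every APC-KI tumour than in any APC-WT tumour. Mzb1 (ENSMUSG00000024353) stood at 0.36, 0.739 and 0.561 CPM in APC-WT replicates 1 to 3 and at 6.47, 7.88 and 3.15 CPM in APC-KI replicates 1 to 3. The lowest APC-KI library was thus far above the highest APC-WT library, and the change was 10.5-fold (log2 3.40 ± 0.45, SE, adjusted p = 0.00697). In GENCODE M21, 695 of the 1215 exon bases of Mzb1 overlap a second gene model on the same strand, SPATA24, which had 0 counts in all libraries. How reads in that overlap were counted is not stated in the sources used here. Tnfrsf17 (ENSMUSG00000022496, chr16:11313812-11320074), the APRIL receptor, was rare in the APC-WT tumours, with 6, 20 and 7 counts or 0.09, 0.352 and 0.131 CPM. It stood at 2.15, 2.26 and 1.07 CPM in the APC-KI tumours, and the change was 9.54-fold (log2 3.25 ± 0.57, adjusted p = 0.0135). Without APC-KI replicate 1 it did not pass (log2 3.12 ± 0.65, adjusted p = 0.0531). APC-WT replicate 2 held most of its APC-WT counts, and without that library the log2 change was 4.03 ± 0.53 (adjusted p = 0.028).

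Irf4 (ENSMUSG00000021356, chr13:30749226-30766976), the factor that starts plasma cell differentiation, stood at 3.49, 4.77 and 2.95 CPM in the APC-WT tumours and at 21.3, 27.7 and 15.2 CPM in the APC-KI tumours. The groups were well apart, and the change was 5.73-fold (log2 2.52 ± 0.28, adjusted p = 0.00532). It had the smallest adjusted p of the 9, and passed with each single library left out, as Mzb1 and Cd79a did. In the 4 libraries that lacked Y-linked counts its log2 change was 2.85 ± 0.42, with an adjusted p of 0.0556. Prdm1 (ENSMUSG00000038151, chr10:44437177-44528501), which encodes BLIMP-1, moved far less. It stood at 19.2, 28.2 and 26.5 CPM in the APC-WT tumours and at 38.9, 40.6 and 37.5 CPM in the APC-KI tumours, a 1.58-fold change (log2 0.66 ± 0.15, adjusted p = 0.0273). The APC-KI libraries lay close together, with a coefficient of variation of 3.96%. Leaving out APC-WT replicate 2 (adjusted p = 0.0527), APC-KI replicate 1 (adjusted p = 0.0874) or APC-KI replicate 2 (adjusted p = 0.0889) ended the call of Prdm1. Its log2 change in these fits was 0.77, 0.67 and 0.63, and 4.02%, 4.95% and 5.02% of all genes were called higher, against 12.5% with all libraries.

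Sdc1 (ENSMUSG00000020592, chr12:8771323-8793715) did not follow the other plasma cell markers. It stood at 476, 445 and 669 CPM in the APC-WT tumours and at 480, 489 and 526 CPM in the APC-KI tumours, so that the groups overlapped. Its log2 change was −0.09 ± 0.16 (adjusted p = 0.708), and it was 0.11 without APC-WT replicate 3. Per kilobase of exon, Sdc1 was at 139 CPM in the APC-WT tumours, where Mzb1 was at 0.455 CPM per kilobase. The epithelial markers Krt8 and Epcam, by comparison, were at 1290 and 615 CPM per kilobase in the APC-WT tumours. Of the 9 epithelial markers listed, 5 rose and 0 fell, and their summed level was 8110 to 9240 CPM in the APC-WT tumours and 10200 to 12200 CPM in the APC-KI tumours. The dendritic cell markers held 1 higher and 0 lower of 8, with summed levels of 31.5 to 49 and 68.6 to 87 CPM. The macrophage markers held 2 higher and 0 lower of 8, with 430 to 560 and 578 to 834 CPM. Beside these counts, 12.5% of all genes tested were higher and 7.63% lower. No marker in any list was at 0 in all libraries. Plasmacytoid dendritic cell markers held 2 higher and 1 lower of 5, with summed levels of 430 to 450 and 305 to 357 CPM. Tcf4, which many cell types express, made up most of that sum and fell from a mean of 350 to 211 CPM, while Siglech and Lair1 rose from 0.741 to 3.15 CPM and from 9 to 18.3 CPM. The part of these cell types and of T cells in the values of Sdc1, Prdm1 and Irf4 was not tested.

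The chains of the B cell receptor complex, Cd79a and Cd79b, rose in all APC-KI tumours and most in replicate 2. Cd79a (ENSMUSG00000003379, chr7:24897381-24902197) stood at 1.17, 1.44 and 1.12 CPM in the APC-WT tumours and at 10.6, 25.7 and 6.74 CPM in the APC-KI tumours. Its APC-WT values were close together (coefficient of variation 13.9%), and the change was 11.5-fold (log2 3.52 ± 0.53, adjusted p = 0.00946). Cd79b (ENSMUSG00000040592, chr11:106311341-106314762) stood at 0.66, 0.932 and 1.31 CPM in the APC-WT tumours and at 3.82, 12.9 and 3.06 CPM in the APC-KI tumours, a 6.82-fold change (log2 2.77 ± 0.63, adjusted p = 0.0284). Without APC-KI replicate 2 the log2 changes were 2.80 ± 0.29 for Cd79a (adjusted p = 0.0147) and 1.84 ± 0.35 for Cd79b (adjusted p = 0.0402). The call of Cd79b was lost on leaving out APC-WT replicate 1 (adjusted p = 0.0828), APC-WT replicate 2 (adjusted p = 0.0996) or APC-KI replicate 1 (adjusted p = 0.0556). Its log2 change in these fits was 2.55, 2.74 and 3.05, and 8.01%, 4.02% and 4.95% of all genes were called higher, against 12.5% with all libraries. Although the proteins pair with each other, the log2 ratio of Cd79a to Cd79b CPM was not fixed. It was 0.83, 0.63 and −0.22 in the APC-WT tumours and 1.47, 0.99 and 1.14 in the APC-KI tumours. The groups did not overlap, but their nearest values, 0.83 and 0.99, lay close together. The APC-WT ratios rested on 60 to 82 counts of Cd79a and 44 to 70 of Cd79b, and the difference between the groups was not tested.

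Ms4a1 and Pax5, genes that plasma cells switch off, owed most of their APC-KI mean to 1 tumour. Ms4a1 (ENSMUSG00000024673, chr19:11249675-11266241) had 9, 16 and 39 counts in the APC-WT tumours and 57, 563 and 76 counts in APC-KI libraries, which is 0.135, 0.281 and 0.729 CPM against 1.09, 10.8 and 1.35 CPM. Its log2 change was 3.54 ± 1.12 (adjusted p = 0.0688). Pax5 (ENSMUSG00000014030, chr4:44524757-44710487) stood at 0.165, 0.229 and 0.374 CPM in the APC-WT tumours and at 0.461, 7.67 and 0.765 CPM in the APC-KI tumours (log2 3.54 ± 1.17, adjusted p = 0.0773). In both genes the APC-KI libraries other than replicate 2 lay above the highest APC-WT library. Without replicate 2 the log2 change was 1.70 ± 0.66 for Ms4a1 (adjusted p = 0.167) and 1.27 ± 0.47 for Pax5 (adjusted p = 0.155). With DESeq2 on all libraries both genes passed, at adjusted p = 0.00103 and 0.00201.

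**Figure D2:**
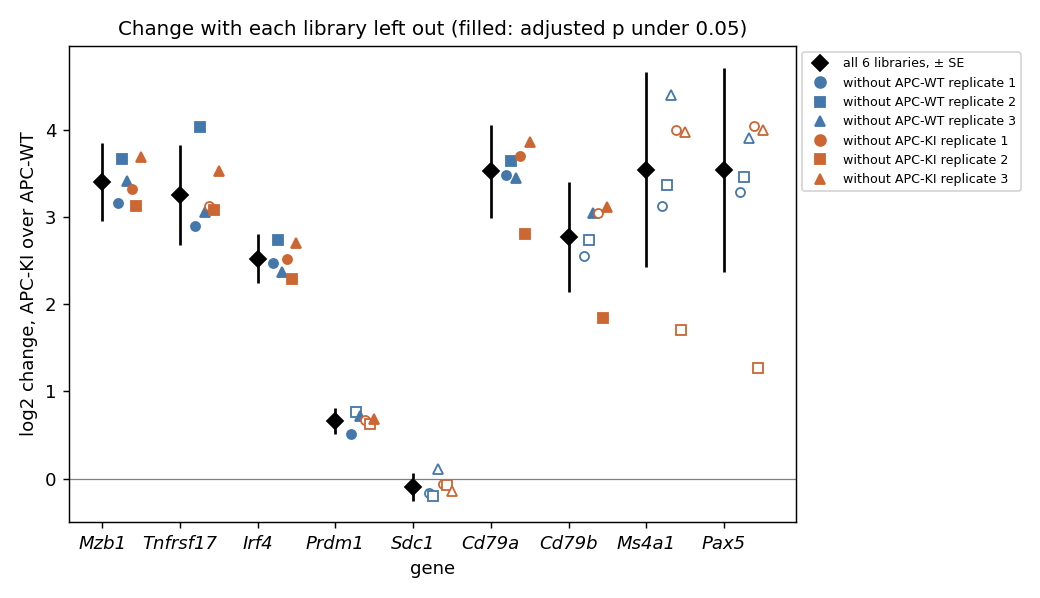
Log2 change of each identity gene over all 6 libraries (black diamonds, bars show the standard error) and with each library left out in turn (blue and orange markers, filled where the adjusted p was under 0.05). Without APC-KI replicate 2 the changes of Ms4a1 and Pax5 were 1.70 and 1.27, while those of Mzb1 and Irf4 were 3.12 and 2.29.

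The ratio of APC-KI replicate 2 to the mean of APC-KI replicates 1 and 3 set the genes in order. This ratio was chosen after the values were seen and is given as a description. It was 12.5 for Pax5, 8.8 for Ms4a1, 3.75 for Cd79b and 2.96 for Cd79a. It was 1.64 for Mzb1, 1.52 for Irf4, 1.4 for Tnfrsf17, 1.06 for Prdm1 and 0.971 for Sdc1. Among all genes with a value the median was 0.994 and 0.784% were above 3. Of the 9 genes, Mzb1 and Tnfrsf17 differed most between the other APC-KI tumours and APC-WT. The mean of replicates 1 and 3 was 8.7 times the APC-WT mean for Mzb1 and 8.43 times for Tnfrsf17, and 3.2 and 2.4 times for Ms4a1 and Pax5. The balance of Ms4a1 to Mzb1 differed within both groups, with log2 ratios of −1.42, −1.39 and 0.38 in the APC-WT tumours and −2.56, 0.45 and −1.22 in the APC-KI tumours. APC-KI replicate 2 was also the APC-KI library with the highest summed level of T cell (81.9 CPM), dendritic cell (87 CPM) and macrophage markers (834 CPM) and of fibroblast markers (3730 CPM), whereas smooth muscle markers were highest in replicate 3. The part of these cell types in the values of the B cell genes was not tested.

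**Figure D3:**
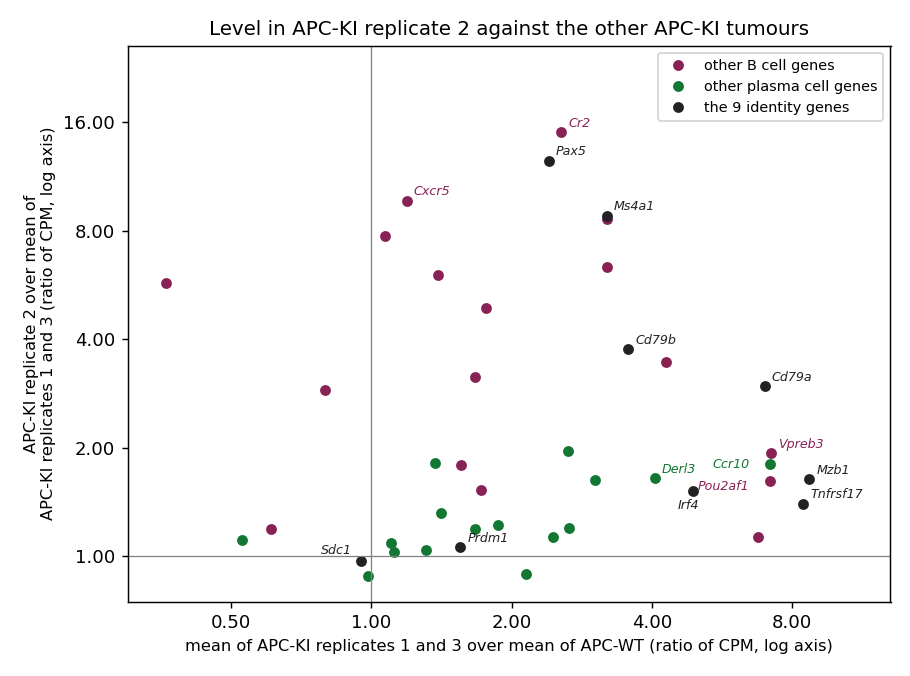
Each point is a gene, with the mean CPM of APC-KI replicates 1 and 3 over the APC-WT mean on the x axis and APC-KI replicate 2 over the mean of APC-KI replicates 1 and 3 on the y axis, both on log axes, for the 9 identity genes, 16 other plasma cell genes and 17 of the 18 other B cell genes. Pax5, Ms4a1 and the B cell gene Cr2 lie high on the y axis, and Mzb1, Tnfrsf17 and Irf4 lie far to the right and low.

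Levels of different genes were compared per kilobase of exon. In APC-KI tumours the order of the group means was Sdc1 (131 CPM per kilobase), Cd79a (9.81), Prdm1 (6.99), Mzb1 (4.8), Cd79b (4.61), Irf4 (4.36), Tnfrsf17 (2.25), Ms4a1 (0.713) and Pax5 (0.335). Neighbours in this order overlapped in range except Sdc1 with Cd79a, Prdm1 with Mzb1, and Irf4 with Tnfrsf17, and Cd79a alone ran from 4.63 to 17.6 CPM per kilobase. In APC-WT tumours the order was Sdc1 (139), Prdm1 (4.43), Cd79a (0.851), Irf4 (0.763), Cd79b (0.676), Mzb1 (0.455), Tnfrsf17 (0.234), Ms4a1 (0.0617) and Pax5 (0.0289), and from Cd79a down all neighbours overlapped. On its full exon length, Mzb1 thus lay below Cd79b in the APC-WT tumours and beside it in the APC-KI tumours. That length counts all 1215 exon bases of Mzb1, of which 695 overlap SPATA24. If reads in the overlap were not counted, Mzb1 would stand higher in both orders, so its place is uncertain.

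The genes with the profiles nearest to Mzb1 and Ms4a1 over the 6 libraries differed. Likeness was the root mean square difference of log2 CPM after centring each gene on its own mean, among 13647 named genes other than antigen receptor genes. Nearest to Mzb1 was Jchain, the chain that joins IgA into dimers, at a difference of 0.12. Next came Cacna1e, a calcium channel subunit (0.25), C2cd4a (0.26), Tnfrsf17 (0.28), Pou2af1, the B lineage coactivator OBF-1 (0.28), Ccr10, a chemokine receptor of IgA plasma cells (0.31), Cmah, an enzyme of sialic acid synthesis (0.32), and Cd79a (0.36). Among the genes nearest to Ms4a1 were Pax5 (0.46), H2-Eb2 (0.48), the complement receptor gene Cr2 (0.54), H2-Ob, a class II modulator (0.57), Cd79b (0.60), the IgE receptor gene Fcer2a (0.69) and Spib (0.73), a factor of B cells. Mzb1 and Ms4a1 themselves differed by 1.03, and Mzb1 and Sdc1 by 1.76. The comparison rests on 6 libraries in 2 groups and has no test.

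Of 18 other B cell genes, 5 rose and 0 fell, and the list's median log2 change of 2.11 became 0.80 on leaving out APC-KI replicate 2. The 5 were Pou2af1 (log2 3.11 ± 0.27, adjusted p = 0.0034), Vpreb3 (3.21), Fcrla (2.96), Ly6d (2.82) and Ebf1 (1.02), the last an early B cell factor that stromal cells also express. There were 3 calls in place of 5 on leaving out replicate 1 of either group or replicate 2 of APC-WT. Calls also fell over all genes, from 12.5% higher to 8.01% without APC-WT replicate 1, 4.95% without APC-KI replicate 1 and 4.02% without APC-WT replicate 2. With single libraries left out, Pou2af1, Vpreb3 and Ly6d passed in 6 of 6 fits. Ebf1 passed in 1, the fit without APC-WT replicate 3, and Fcrla in 1, the fit without APC-KI replicate 3, and Fcrla had a log2 change of 2.10 when APC-KI replicate 2 was left out. Pou2af1 stood at 3.63, 4.61 and 3.63 CPM in the APC-WT tumours and at 33.2, 45.8 and 23.5 CPM in the APC-KI tumours, so it was high in every APC-KI library. Ly6d, which some epithelia also express, was at 147 CPM or more in every APC-KI library. Cr2 had 0.864, 12.7 and 0.836 CPM in the APC-KI tumours and did not pass (log2 3.87 ± 1.44, adjusted p = 0.102). APC-KI replicate 2 was the highest APC-KI library for 17 of the 18, against 32.6% of all genes tested. For 11 of the 18 it was more than 3 times the mean of the other APC-KI libraries. Being highest in replicate 2 was not particular to this list. It held for 8 of the 9 identity genes, 13 of 14 genes of B cell receptor signalling and 5 of 7 germinal centre genes. The same was so for 11 of 16 other plasma cell genes, 9 of 12 antibody chains and 10 of 13 survival and homing signals.

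**Figure D4:**
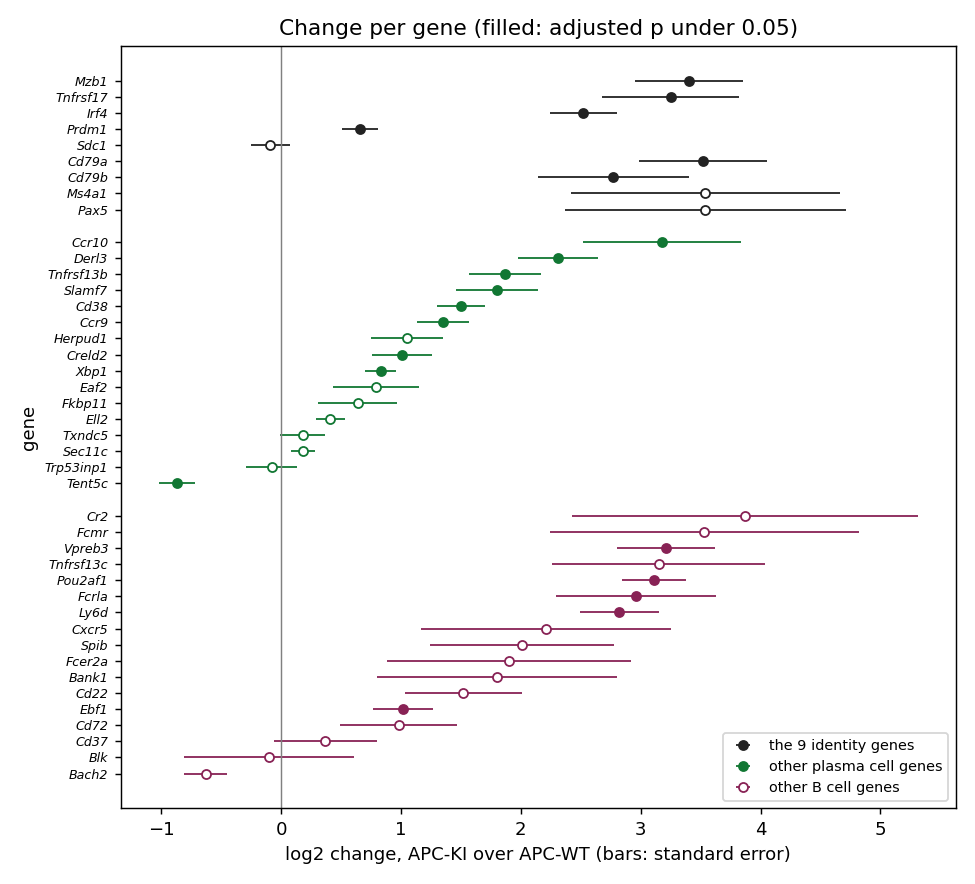
Log2 change of APC-KI over APC-WT with its standard error for the 9 identity genes (black), 16 other plasma cell genes (green) and 17 of the 18 other B cell genes (purple), with filled points at an adjusted p under 0.05. Cr2, Pax5 and Ms4a1 have standard errors of 1.44, 1.17 and 1.12. Of the 18 B cell genes 5 passed as higher and 0 as lower, with a median log2 change of 2.11. Of the 16 plasma cell genes 8 passed as higher and 1 as lower, with a median of 0.92. Over all genes tested 12.5% passed as higher and 7.63% as lower.

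Of 16 other plasma cell genes, 8 rose and 1 fell. Their median log2 change was 0.92, and 0.83 when APC-KI replicate 2 was left out. Replicate 2 was at no more than 1.96 times the mean of the other APC-KI libraries in any of them. Cd38, an ectoenzyme that epithelial cells can carry as well, rose from 129 ± 19.1 to 366 ± 89.6 CPM (SD, n = 3 each, edgeR adjusted p = 0.0078). Derl3, a factor of protein disposal from the endoplasmic reticulum, was 4.95-fold higher, Tnfrsf13b, a BAFF and APRIL receptor beside Tnfrsf17, 3.66-fold, and Xbp1, the factor of the secretory programme, 1.78-fold. Ccr10 stood at 0.105, 0.457 and 0.206 CPM in the APC-WT tumours and at 2.69, 3.31 and 0.979 CPM in the APC-KI tumours (adjusted p = 0.0222). Its call was lost on leaving out APC-WT replicate 1 (adjusted p = 0.0504) or APC-KI replicates 1 (0.0726) or 2 (0.0673), and its log2 change of 3.18 became 3.90 on leaving out APC-WT replicate 2. The gene that fell, named after its value was seen, was Tent5c, a poly(A) polymerase, at a log2 change of −0.87 ± 0.15. Among 12 antibody chains 7 rose and 0 fell, where 12.5% of all genes were higher. Only 3 were called on leaving out APC-KI replicate 2 or either replicate 1 or replicate 3 of APC-WT. Over all genes, 5.02%, 8.01% and 12.9% were called higher in these 3 fits. Jchain had 93.5, 158 and 105 CPM in the APC-WT tumours and 1320, 1560 and 640 CPM in the APC-KI tumours, and the log2 ratio of Mzb1 to Jchain lay between −8.02 and −7.55 in all 6. Igha, Igkc and Ighg2b rose by 3.23, 3.34 and 4.43 on the log2 scale, with gamma chain reads possibly split among related genes. Ighg2b stood at 42.1, 176 and 508 CPM in the APC-KI tumours, and its log2 change was 3.28 ± 0.81 when APC-KI replicate 3 was left out (adjusted p = 0.0411). Its call was lost on leaving out any APC-WT library or APC-KI replicate 2, with adjusted p up to 0.0968. Ighd, which unswitched B cells transcribe and which was named after its values were seen, had 1.29, 10.8 and 1.1 CPM in the APC-KI tumours and did not pass (adjusted p = 0.105).

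Of 14 genes of B cell receptor signalling, 3 rose and 0 fell, with a median log2 change of 0.44. Over all genes tested, 12.5% rose and 7.63% fell, with a median of −0.02. Lyn and Syk, kinases that other blood cells and epithelium also use, were 1.79-fold and 1.82-fold higher, and Rasgrp3 rose by 1.25 on the log2 scale. Rasgrp3 did not pass when replicate 1 or 2 of either group was left out, with adjusted p up to 0.127. Pik3cd did not pass (log2 0.80, adjusted p = 0.0673). Of 7 germinal centre genes tested, 3 rose and 0 fell, with a median of 0.29. They were Klhl6 (log2 1.88), Nuggc (2.32) and Mef2b (2.55), and Bcl6, the master factor of germinal centre B cells, did not pass (log2 0.20, adjusted p = 0.147). Mef2b passed in 1 of 6 fits with a library left out, that without APC-KI replicate 3, and had a log2 change of 1.66 when APC-KI replicate 2 was left out. Survival and homing signals held 4 higher and 1 lower of 13, with a median of 0.95. There were 2 calls on leaving out APC-WT replicate 2, APC-KI replicate 1 or APC-KI replicate 2, where 4.02%, 4.95% and 5.02% of all genes were called higher. The survival factors BAFF (Tnfsf13b) and APRIL (Tnfsf13) rose 5.01-fold and 1.94-fold. Ccl28, the epithelial ligand of Ccr10, rose from 13.6, 16.8 and 21.5 CPM to 94.7, 82 and 52.3 CPM (log2 2.14 ± 0.26, adjusted p = 0.00663). Ccl19 rose by 4.19 from near 0, and Ccl25, the ligand of Ccr9, fell by 0.53 on the log2 scale. The calls of Tnfsf13 and Ccl19 were lost on leaving out replicate 2 of either group or APC-KI replicate 1, and Ccl25 passed in 1 of 6 such fits, that without APC-WT replicate 3. The log2 change of Ccl19 ranged from 3.41 without APC-KI replicate 2 to 4.87 without APC-WT replicate 2.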

How the data were processed

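Counts were those of 1 deposited table, in which the authors gave unnormalized counts of reads, as whole numbers, for each Ensembl gene, per the file headers and values. Libraries came from a stranded mRNA kit, per the labels' protocols. The submitters' processing notes name the builds GRCm38 and mm10 and the tools STAR, cutadapt 2.5, Trim Galore 0.6.4 and DESeq2 1.37.6. Which program counted reads, with which strand option and gene models, is not given in the sources used here. Symbols and exon lengths were taken from GENCODE M21, which named 52093 of 53700 identifiers, 35 with an equal version.

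Groups came from the sample titles. After filterByExpr and TMM scaling, genes were tested in edgeR 4.0.16 (robust glmQLFit, glmQLFTest) in R 4.3.3, with Benjamini-Hochberg adjustment over 19127 genes. Standard errors are the log2 change divided by the square root of F. Within groups, chi-square per gene was 40.1 to 114, so each library counted as a replicate. The 9 genes, the lists and the alternatives were chosen with earlier results of these data known. Named besides the 9 were up to 4 genes of each pathway list with the smallest p, all called genes of a list with 5 or fewer, and the 8 genes nearest to Mzb1 and to Ms4a1 whose average log2 CPM was 0 or more, some of which are not reported here. The steps were tested on simulated data, where 53% of genes changed 2-fold and 86% of those changed 4-fold were called. There 12 of 151 calls were false. DESeq2 1.42.0, limma-voom (limma 3.58.1), other scalings and filters, a replicate block, Y-linked counts and each library left out were alternatives.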

Additional observations from a re-analysis of the deposited data

How the results depend on the processing

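The number of identity genes that passed was 6 in the fit reported, 6 with limma-voom, RLE factors, upper-quartile factors, library totals only, either filter and without antigen receptor genes, 8 with DESeq2, and 3 to 6 with single libraries left out. Presence of Y-linked counts as a covariate left 1 of the 9 (Irf4), where 1.15% of all genes were called higher, and the 4 libraries without such counts left 0, with fewer samples in that fit. Pax5 did not pass the stricter filter on low counts. In the same 2 settings the numbers called were 2 and 1 of the other B cell genes, 1 and 0 of B cell receptor signalling, 0 and 0 of germinal centre genes, 1 and 1 of other plasma cell genes, 1 and 0 of antibody chains, and 1 and 0 of survival and homing signals. With DESeq2, 9 of the other B cell genes were higher and 1 lower, of 16 with an adjusted p. Of 14 genes of B cell receptor signalling, 6 were higher and 0 lower in that setting. DESeq2 called 17.6% of all genes tested higher, against 12.5% in the fit reported. Antibody chains called were 3 with limma-voom, 3 with no filter on low counts and 4 with the replicate block, and could not be given with antigen receptor genes removed. Over all genes, 13% were called higher with limma-voom, 7.09% with no filter and 6.25% with the replicate block. The cause of these differences was not tested. With single libraries left out, the calls ranged from 3 to 6 for other B cell genes, 2 to 3 for B cell receptor signalling, 2 to 3 for germinal centre genes, 6 to 10 for other plasma cell genes, 3 to 6 for antibody chains and 2 to 5 for survival and homing signals. In the same fits 4.02% to 12.9% of all genes were called higher, against 12.5% in the fit reported. Over all genes, the higher and lower calls were 2388 and 1459, and 1978 and 2844 with library totals only, which moved the median log2 change from −0.016 to −0.132. The identity genes that passed had the same direction in each setting and with each library left out.

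No sign of pairing by replicate number was seen, though 3 libraries per group cannot exclude it. Deviations of same-numbered libraries correlated at 0.03, −0.07 and −0.18 over genes, and no APC-WT library correlated best with its own number. The replicate block gave 4 identity genes, without Prdm1 (adjusted p = 0.0555) and Cd79b (adjusted p = 0.0657), and 1195 higher and 465 lower genes in all. APC-WT libraries held 9 to 39 counts of Ms4a1 and 11 to 20 of Pax5, and 6 to 20 of Tnfrsf17, which passed. The part of counting error in the spread of these genes was not tested.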
